A study of Mus musculus with 6 samples.

Results

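Among the stretches of open chromatin that every library of the study shared, 8045 ranked far higher in the Chd4 knockout than in the control and are termed strengthened regions here. The assay was ATAC-seq, which reads out accessible DNA from the insertions of a transposase, and the cells were mature β-cells, which make and release insulin. The control group (3 libraries) came from tamoxifen-treated control mice, and the knockout group (3 libraries) from tamoxifen-treated mice whose genotype label gives a Chd4 knockout and which the series text calls Chd4Db. Both groups were β-cells sorted for the red fluorescent protein Tomato from dispersed islets. The labels used here give neither the Cre driver, the strain and the age nor whether libraries came from separate or pooled animals, so the spread between libraries may be technical.

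Strengthened regions were chosen from the deposited peak lists. Overlapping peaks of the 6 lists (1 bp or more) were joined into 156745 regions, 75312 of these were called in all 6 libraries, and 73402 of those lay on autosomes and are termed shared regions. The strength of a region in a library was the highest −log10 p among its peaks there, turned into a percentile from 0 to 100 among the shared regions of that library. A region was strengthened if its mean knockout percentile exceeded its mean control percentile by at least 20 points and none of its 3 knockout values was at or below any of its 3 control values. The 8045 regions that met this are 11.0% of the shared regions. The same rule with the sign turned gave 6453 weakened regions, or 8.79%. Since the rule uses the difference between knockout and control, the differences below are a description and carry no test.

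Chd4 is the ATP-dependent motor of the NuRD complex, which slides nucleosomes, carries histone deacetylases and is known for closing regulatory DNA as well as for keeping it in order during differentiation. In β-cells, accessible DNA away from promoters includes many enhancers bound by factors such as Pdx1, Nkx6-1, Neurod1 and Foxa2, while promoters of widely used genes are open in most cell types. A peak that is present in both groups and stronger in one is a quantitative change at a site already open, unlike a peak found in only one group.

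Of the strengthened regions, 440 (5.47%) lay over a RefSeq promoter window, against 15.3% of all shared and 4.04% of weakened regions. The window runs from 250 bases before to 50 bases after a gene's start. The largest differences there were at 2700070H01Rik, which is not among the protein-coding genes, Ugt1a1, Wnt16 and Bmp8b, followed by Gm10505 and Msx2. The 250 bases before the start are shown for the 4 protein-coding genes among them, whose ranks differed most among such genes. The stretches run 5′ to 3′ on the strand of the gene (RefSeq, GRCm38.p6). Capitals mark CCAAT on either strand (ATTGG on the other), the letters of the CCAAT box.
Ugt1a1: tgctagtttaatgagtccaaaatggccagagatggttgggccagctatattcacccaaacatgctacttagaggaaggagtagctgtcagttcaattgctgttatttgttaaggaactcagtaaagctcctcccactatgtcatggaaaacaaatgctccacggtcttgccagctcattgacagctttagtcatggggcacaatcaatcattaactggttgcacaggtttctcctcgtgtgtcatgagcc
Wnt16: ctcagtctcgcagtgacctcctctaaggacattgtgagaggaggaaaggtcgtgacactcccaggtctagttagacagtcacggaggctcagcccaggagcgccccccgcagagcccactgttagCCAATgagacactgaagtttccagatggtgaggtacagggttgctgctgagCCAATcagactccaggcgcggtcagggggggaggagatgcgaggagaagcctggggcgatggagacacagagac
Bmp8b: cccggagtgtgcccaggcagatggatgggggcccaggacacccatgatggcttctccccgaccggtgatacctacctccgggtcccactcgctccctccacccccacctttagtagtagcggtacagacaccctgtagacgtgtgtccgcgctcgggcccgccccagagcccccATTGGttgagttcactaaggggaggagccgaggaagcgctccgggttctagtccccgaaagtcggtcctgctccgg
Msx2: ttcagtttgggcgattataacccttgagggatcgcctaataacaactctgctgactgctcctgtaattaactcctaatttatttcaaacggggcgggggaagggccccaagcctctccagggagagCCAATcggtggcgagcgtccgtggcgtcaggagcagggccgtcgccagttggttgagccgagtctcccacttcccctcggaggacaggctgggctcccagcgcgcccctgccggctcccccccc
The stretch of Ugt1a1 (chr1:88211709-88211958, plus strand) held 2 CpG and no CCAAT, and that of Wnt16 (chr6:22287977-22288226, plus strand) 9 CpG and 2 CCAAT. The stretch of Bmp8b (chr4:123104911-123105160, plus strand) held 17 CpG and 1 CCAAT, and that of Msx2 (chr13:53472781-53473030, minus strand) 16 CpG and 1 CCAAT. Those of 2700070H01Rik and Gm10505, not shown, held 5 and 7 CpG and no CCAAT.

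These promoters were near the bottom of the control rankings and in the upper ranks of the knockout. At Ugt1a1, the enzyme that conjugates bilirubin, the region (chr1:88211556-88212279) had percentiles of 4.78, 2.70 and 0.69 in the control libraries and 82.8, 86.6 and 78.51 in the knockout libraries. At Wnt16, a secreted Wnt ligand (chr6:22287778-22289162), the control libraries had 9.46, 5.46 and 2.14 and the knockout libraries 80.6, 80.9 and 88.8. The control and knockout libraries did not overlap at either, as the rule requires, and the group means stood 79.9 and 77.7 points apart. At Bmp8b, a ligand of the BMP family (chr4:123104560-123105482), the mean percentile was 6.19 ± 5.33 (SD, n = 3) in the control and 83.1 ± 2.59 in the knockout. At Msx2, a homeobox repressor (chr13:53472340-53473153), it was 10.9 ± 2.94 and 84.2 ± 3.13.

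As a group, strengthened regions were weak peaks in the control and peaks of above-median strength in the knockout. Their median percentiles were 21.51, 21.52 and 22.004 in the control libraries and 59.2, 59.1 and 59.99 in the knockout libraries. The 3 libraries of each genotype gave nearly the same median, which follows in part from the ranking and from the choice on these values. The mean control percentile was under 20 for 46.9% of strengthened regions, and the mean knockout percentile was over 80 for 12.02%. The difference was between 20 and 30 points for 3767 regions, at least 40 for 2054, at least 60 for 350 and at least 80 for 29. At the threshold, the 3 regions just inside were near Cdh4 (20.0018 points), Cxxc4 and Sox17 (both 20.0036), and the 3 just outside were near Sypl (19.9961), Egr4 (19.9956) and Zfp369 (19.9897). A further 8666 shared regions had knockout values all above control values with a difference under 20, so that 22.8% of shared regions ranked higher in the knockout without overlap and 29.9% lower.

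**Figure D1:**
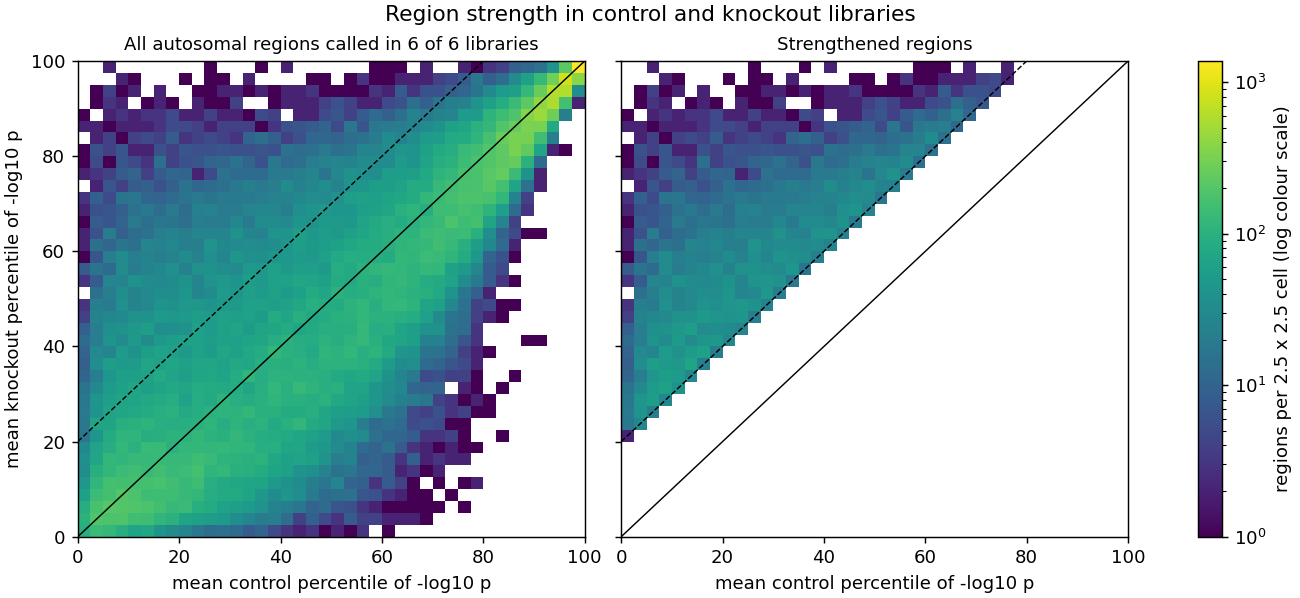
Mean control percentile (x axis) against mean knockout percentile (y axis) of −log10 p for all 73402 shared regions (left) and the 8045 strengthened regions (right), as the number of regions per cell on a log colour scale. The solid line marks equal percentiles and the dashed line the margin of 20 points. Strengthened regions fill the area above the dashed line, most densely where the control percentile is low.

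The authors' own values are given here before ranking, as a description, since the rule used their −log10 p. The median fold enrichment at the summit of strengthened regions was 5.98, 7.05 and 6.46 in the control libraries and 16.97, 17.00 and 14.6 in the knockout libraries. Over all shared regions it was 10.50 ± 0.42 (SD, n = 3) in the control and 12.1 ± 0.95 in the knockout, a somewhat higher median. At weakened regions, chosen for a lower rank in the knockout, it was 11.6 ± 0.51 and 7.17 ± 0.77. The median −log10 p of strengthened regions was 26.2 ± 2.33 in the control and 139 ± 10.49 in the knockout, against 68.0 ± 3.13 and 99.9 ± 10.2 over all shared regions. Without ranking, −log10 p was higher in each knockout library than in each control library at all 8045 strengthened regions and at 35.1% of shared regions. That follows from the choice, which used these values. Fold enrichment was higher in each knockout library at 7973 of the strengthened regions, against 31.2% of shared regions. The lists carry no read depth, and −log10 p grows with depth, so ranks within a library were compared.

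Peaks of strengthened regions were also wider in the knockout lists. These widths come from the same peaks whose −log10 p the rule used, so they are a description and no separate support. The median number of bases under peaks per strengthened region was 428, 479 and 435 bp in the control libraries and 653, 660 and 649 bp in the knockout libraries. All knockout values exceeded all control values at 5487 of the 8045 strengthened regions (68.2%), against 18.8% of shared regions. For all shared regions the medians were 619 ± 18.01 bp in the control and 641 ± 8.02 bp in the knockout. Weakened regions went the other way, with 559 ± 17.5 bp in the control and 433 ± 14.6 bp in the knockout. The site of highest signal moved little. The median distance between the control and knockout summits of a strengthened region was 11 bp, against 8 bp for all shared regions, and it exceeded 200 bp at 345 strengthened regions (4.29%, against 3.87% of shared regions). A single peak was called in each of the 6 libraries at 7603 strengthened regions (94.5%). At 200 bp downstream of the knockout summit, 44.9% to 51.8% of strengthened regions lay under a control peak and 81.8% to 82.1% under a knockout peak.

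**Figure D2:**
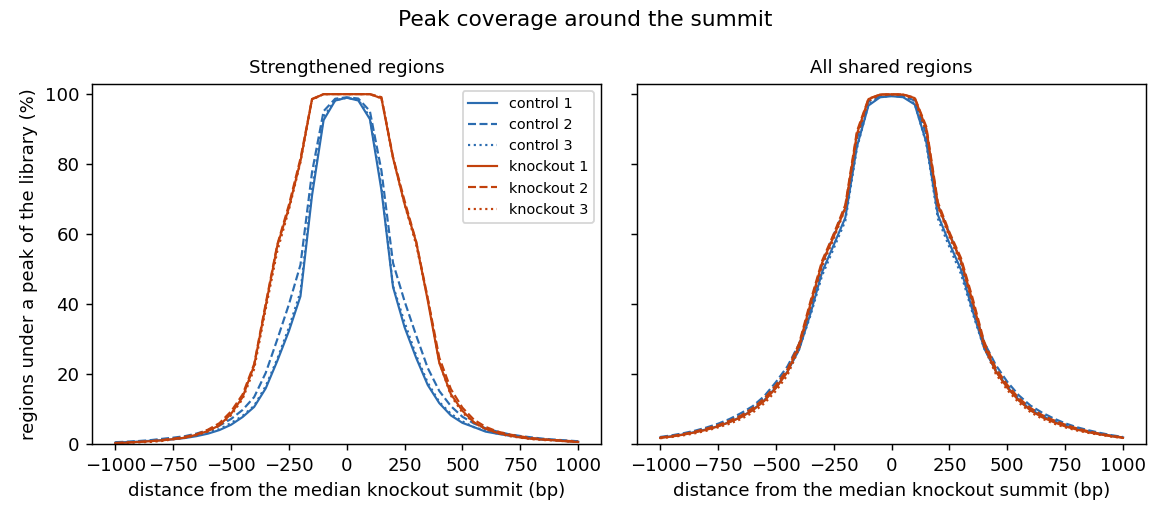
Share of regions under a peak of each library (y axis, percent) by distance from the median summit of the knockout libraries (x axis, bp), for strengthened regions (left) and all shared regions (right). Each line is 1 library. Within 200 bp of the summit the 3 knockout lines lie above the 3 control lines at strengthened regions, and at -1000 bp they lie below them, all under 1%, while the 6 lines nearly coincide over all shared regions. The knockout summit as centre favours the knockout lines slightly.

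The strengthening carried over to libraries whose strength values had played no part in the choice. Regions were chosen with 2 control and 2 knockout libraries by the same rule and read in the remaining pair, for each of the 9 pairs. Between 8222 and 8533 regions were chosen each time. Their median difference in the left-out pair was 28.6 to 30.1 points, against 30.6 to 30.9 points in the libraries used for the choice. The knockout library of the left-out pair ranked above the control library at 95.1% to 98.1% of the chosen regions, against 44.0% to 45.8% of all shared regions. The difference in the left-out pair was again at least 20 points at 68.8% to 73.7% of the chosen regions. The 9 pairs share libraries and were therefore not tested. All regions were joined from all 6 lists and required to be called in all 6 libraries, but their strength in the left-out pair was not used. The labels do not say whether libraries came from separate animals, so the agreement may be technical.

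The 12 largest differences were at peaks that ranked low in every control library, at most at 23.9, and high in every knockout library, at least at 86.6. All 12 lay more than 1 kb from a gene end. The region with the largest difference lay within Cmya5, a gene of striated muscle (chr13:93082255-93082858). Its percentiles were 12.3, 0.61 and 4.36 in the control libraries and 98.4, 98.9 and 99.2 in the knockout libraries. The authors' fold enrichment there was 4.25 ± 0.88 (SD, n = 3) in the control and 27.4 ± 0.76 in the knockout. This peak was thus among the weakest shared peaks of the control and among the strongest 2% of the knockout. A region within Sh3yl1 (chr12:30922319-30922843), an SH3 domain gene, had 11.4, 0.90 and 8.07 in the control libraries and 97.3, 98.1 and 99.1 in the knockout libraries. A region 2517 bp from Ldlrad1, between genes (chr4:107223609-107224146), had 7.53, 0.90 and 0.69 against 90.4, 91.1 and 92.48, with a fold enrichment of 3.75 ± 0.59 against 32.9 ± 2.22.

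Of the other regions with the largest differences, one within Grik4, a kainate receptor subunit gene (chr9:42573161-42573842), had a mean percentile of 7.31 ± 7.10 in the control and 94.8 ± 0.50 in the knockout. One within Rap1gap, which switches off the GTPase Rap1 (chr4:137727521-137728176), had 5.15 ± 1.21 and 92.2 ± 1.43. One within Chd6, a remodeler of the same family as Chd4 (chr2:160957416-160958284), had 2.40 ± 2.55 and 87.6 ± 1.49. The remaining 6 were within Malrd1 and Trim45 or near Supt20, Tmprss4, Pura and Ibtk, with differences of 86.0 to 88.3 points. Of these 12 regions, 7 lay within genes and 5 between genes, and control library 2 had the lowest of the control values at 8 of them.

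**Figure D3:**
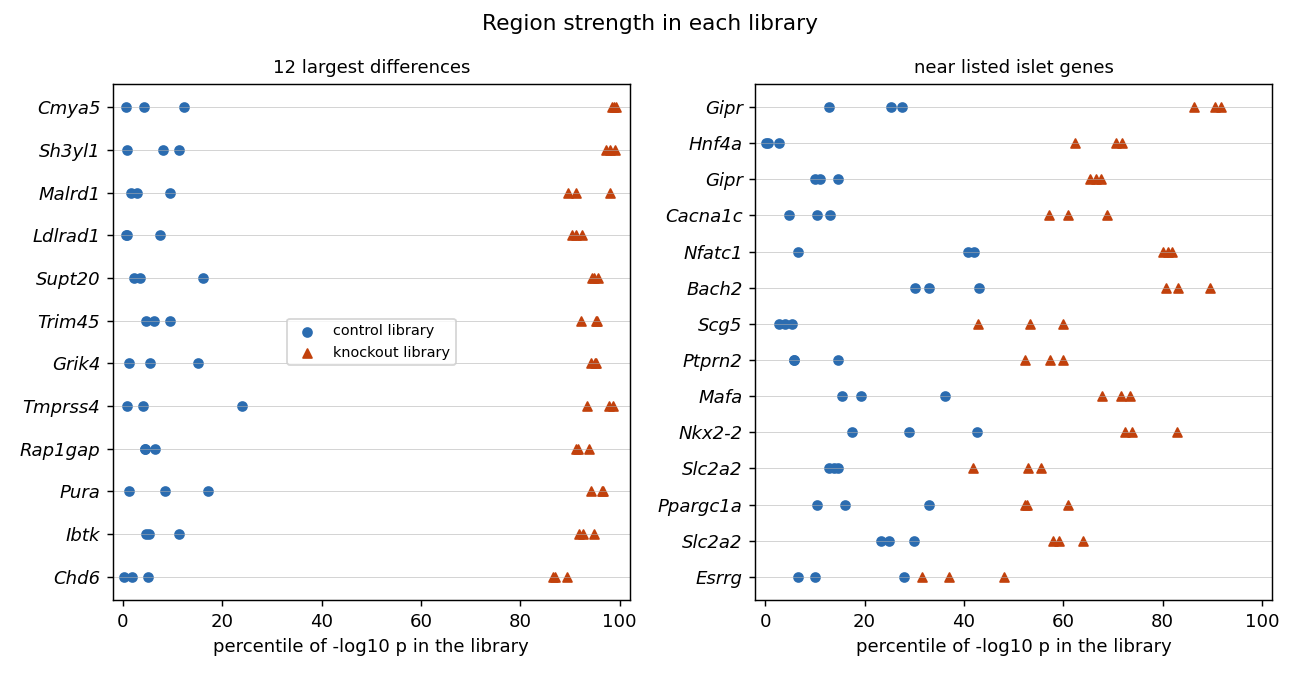
Percentile of −log10 p (x axis) in each library, for the 12 strengthened regions with the largest difference (left) and for those named near listed islet genes (right), labelled by gene. Each circle is a control library and each triangle a knockout library. The groups do not overlap in any row, and the gap is widest at Cmya5 and narrowest at Esrrg.

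Strengthened regions lay mostly away from gene ends, within genes or between them. Within 1 kb of either end of a protein-coding gene span lay 586 of the 8045 (7.28%), within a gene span 3889 (48.3%) and between genes 3570 (44.4%). Of all shared regions, 18.9% lay at gene ends, 45.6% within and 35.5% between genes, and of weakened regions 8.06%, 51.99% and 39.95%. Much of the gap to all shared regions is set by the rule. A region whose mean control percentile is over 80 cannot gain 20 points, and 57.4% of those 14485 regions lay at gene ends. The shares were therefore compared within bands of the mean percentile over the 6 libraries. Between 40 and 60, gene ends held 7.36% of strengthened regions (95% exact binomial interval in the plot of position by strength) and 9.41% of shared regions, and between genes lay 45.4% and 41.2%. Between 60 and 80, gene ends held 11.6% and 17.7%, and between genes lay 42.05% and 37.7%. Below 20, gene ends held 7.79% of strengthened and 6.71% of shared regions. The median distance to a gene end was 30641 bp for strengthened, 19286 bp for weakened and 17372.5 bp for all shared regions, and 38.9%, 27.8% and 28.6% lay more than 50 kb from one.

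**Figure D4:**
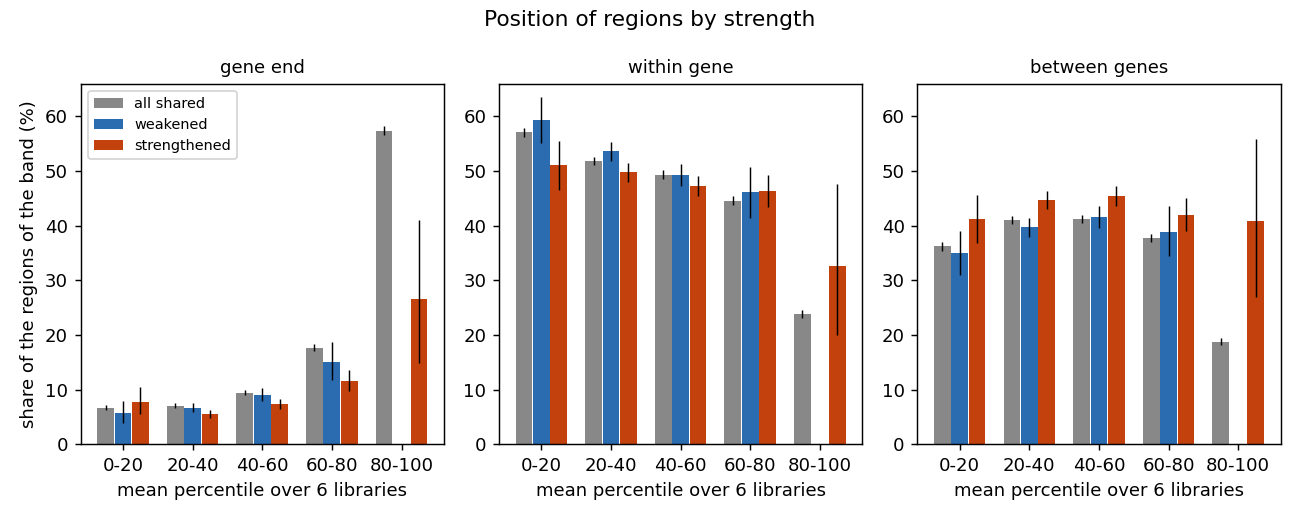
Share of regions (y axis, percent) at gene ends, within genes and between genes, by the mean percentile over the 6 libraries (x axis), for all shared, weakened and strengthened regions. Bars are shares with 95% exact binomial intervals, which treat regions as independent. Between 20 and 80, strengthened regions have a lower share at gene ends and a higher share between genes than all shared regions of the same band, and no weakened region lies above 80.

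Strengthened regions were spread over all 19 autosomes. They made up between 9.06% (chromosome 11) and 12.4% (chromosome 18) of the shared regions of a chromosome. Regions that appeared in the knockout lay near strengthened regions about as often as near any shared region. A gained region, called in all 3 knockout libraries and no control library, lay within 50 kb of 61.1% of strengthened, 58.5% of weakened and 61.2% of all shared regions. A lost region lay within 50 kb of 19.9%, 24.7% and 22.8%.

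The promoters under strengthened regions had fewer CpG than those under all shared regions, as had those under weakened regions. The 440 regions held 523 promoter windows, some of which overlap each other. Their median CpG count was 10 per 300 bases and their median GC content 57.7%. For the 4480 windows under shared regions with a mean percentile of 20 to 80 the medians were 15 and 58.7%, and for all 14640 windows under shared regions 21 and 61.7%. They were 13 and 57.3% under weakened regions, and 7 and 52.7% for all 32851 promoter windows. Strength within the band of 20 to 80 was not matched. From 20 to 40, 40 to 60 and 60 to 80, gene ends held 189, 219 and 127 strengthened regions. Among all shared regions they held 1271, 1498 and 2429. Of the windows under strengthened regions, 39.6% held at least 15 CpG, against 50.8% under shared regions of middle strength and 43.8% under weakened regions. Of all promoter windows, 34.6% did. CCAAT, the letters of the box bound by NF-Y, stood on either strand of 42.6% of windows under strengthened regions and 36.8% under all shared regions. It stood in 29.2% under shared regions of middle strength, 26.8% under weakened regions and 37.4% of all 32851 windows of the table. GGGCGG, a core of Sp-factor sites, stood in 48.4% under strengthened, 51.6% under middle-strength shared and 43.8% under weakened regions and 35.7% of all windows. CCGGAAG, a core of ETS-factor sites, stood in 5.54%, 7.72%, 7.84% and 8.86% of the same 4 sets. TGACGTCA, the cAMP response element, stood in 1.34% of windows under strengthened regions and 2.01% under shared regions of middle strength. It stood in 0.98% under weakened regions and 1.79% of all windows. A match shows letters in the window and not binding, and the windows cover only the few strengthened regions at gene starts. TGTTTAC, a forkhead core, stood in 4.78% and 3.82%, and TGANTCA, the AP-1 letters, in 7.46% and 6.16%. CANNTG, the E-box that helix-loop-helix factors such as Neurod1 bind, stood in 73.4%, 67.8%, 66.3% and 72.3%. Its form CAGATG stood in 13.2%, 14.51%, 16.7% and 17.2%.

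Strengthened regions were counted near genes by taking each gene span with 10 kb on either side. Of the protein-coding genes, 4295 had at least 1 strengthened region there, and 3202 of them had exactly 1. The 6 genes with the most are given first, and Nell1 (9 of 38) tied with the last of them. Dab1, the adaptor of reelin signalling (chromosome 4, 103619500 to 104744844), had 15 strengthened and 2 weakened among 26 shared regions. All 15 lay within the gene, and their differences ran from 21.8 to 70.2 points, with a median of 42.2. The strongest contrast (chr4:104718990-104719866) had percentiles of 16.2, 1.67 and 8.07 in the control libraries and 76.4, 79.6 and 80.6 in the knockout libraries. The next (chr4:104217335-104218099) had 16.2, 12.4 and 3.55 against 75.97, 79.2 and 75.2. The strengthened share at Dab1, 57.7%, was the highest among genes with at least 10 shared regions, ahead of Sorcs1, a sorting receptor gene, and Zhx2, a zinc finger and homeobox gene (6 of 13 each, 46.2%), and Ntng1, a netrin-G gene (5 of 12, 41.7%).

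The next genes by number were Ntm, a cell adhesion gene of neurons, with 13 of 43 shared regions strengthened, and Ptprn2, which encodes the phogrin protein of insulin granules, with 13 of 71. Tenm4, a teneurin, had 11 of 44, Hivep3, a zinc finger gene, 10 of 34, and Arid1b, a subunit of the SWI/SNF remodeler, 9 of 42. These 5 shares ran from 18.3% at Ptprn2 to 30.2% at Ntm, against 11.0% of all shared regions. Genes were picked here by their number of strengthened regions, so shares above that of all shared regions are partly set by the choice. Such a count also grows with the number of shared regions near a gene. The largest difference at Hivep3 (chr4:120079145-120080009) was at a peak with 26.3, 20.6 and 34.1 in the control libraries and 97.54, 97.8 and 97.47 in the knockout libraries. At Ptprn2 differences were smaller, with a median of 27.1 and a maximum of 47.7 points (chr12:116710613-116711587).

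Genes of β-cell identity held strengthened regions at about the rate of all shared regions. Near 25 β-cell transcription factor genes lay 207 shared regions, of which 19 were strengthened (9.18%) and 10 weakened (4.83%), with a median difference of -2.48 points against -1.38 over all shared regions. The largest difference was within Hnf4a, a nuclear receptor that also acts in hepatocytes (chr2:163517364-163518280). Its percentiles were 0.51, 0.09 and 2.80 in the control libraries and 71.9, 70.52 and 62.4 in the knockout libraries, with a fold enrichment of 3.27 ± 0.58 and 19.47 ± 1.88. It was the only strengthened region of the 4 shared regions near Hnf4a. A region 5052 bp from Nkx2-2, a homeobox factor of islet cells (chr2:147170552-147171433), had 42.7, 29.03 and 17.6 against 72.4, 73.9 and 82.9. A region within Zc3h3 and within 10 kb of Mafa, an activator of the insulin gene (chr15:75757811-75758410), had 15.6, 19.4 and 36.1 against 71.52, 67.9 and 73.4. The control libraries spread widely at these last regions, and the lack of overlap with the knockout libraries is required by the rule. Regions within Nfatc1 and Bach2 had differences of 51.2 and 49.1 points. At the Nfatc1 region (chr18:80628839-80629389) control library 2, at 6.64, stood apart from the other control libraries at 40.8 and 41.96. Pdx1 had 1 strengthened region among 4, between genes (chr5:147260607-147261400), with 18.4, 19.4 and 11.498 against 37.1, 41.02 and 41.004.

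Of 421 shared regions near 40 genes of insulin and its secretion, 46 were strengthened (10.9%) and 40 weakened (9.501%), with a median difference of -0.73 points. These 46 lay near 18 of the genes, 13 of them near Ptprn2. Within 10 kb of Gipr, the receptor of the incretin GIP, lay 2 of the 5 largest differences, while 3 of the 10 shared regions near this gene were weakened. One (chr7:19164239-19164684) was within the gene, with 9.95, 10.9 and 14.6 in the control libraries and 67.6, 65.3 and 66.54 in the knockout libraries. The other (chr7:19175567-19176520) lay at an end of the neighbouring Eml2, a microtubule-binding protein gene, with 27.53, 12.8 and 25.4 against 91.8, 90.51 and 86.2. A region within Cacna1c, a calcium channel subunit (chr6:118820864-118821580), had a mean of 9.42 ± 4.31 in the control and 62.3 ± 5.92 in the knockout. A region near Scg5, a chaperone of prohormone processing (chr2:113765760-113766316), had 4.07 ± 1.34 and 52.1 ± 8.63. Of 61 shared regions near 10 maturation genes, 7 were strengthened (11.5%) and 5 weakened. Slc2a2, the glucose transporter, held 2 of them among its 7 shared regions, with differences of 34.3 (chr3:28724887-28725676, within the gene) and 36.3 points (chr3:28734750-28735187, 6389 bp from it). The other regions named for this list were within Ppargc1a (35.5 points) and Esrrg (24.04 points), which also had 3 weakened regions nearby.

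Near genes of other islet cells and of vessels the strengthened share was higher, on few regions. Near 16 α-cell genes, 11 of 56 shared regions were strengthened (19.6%) and 1 was weakened. They included 4 of 8 at Dpp4, a peptidase gene, 3 of 8 at Ldb2, a LIM-binding cofactor, and 1 of 2 at Irx2, an α-cell homeobox gene (chr13:72628062-72629423, with 42.05, 28.3 and 49.9 against 81.49, 82.00 and 81.4). The median difference over these 56 regions was 0.72 points. Near 14 endothelial genes, 7 of 36 were strengthened (19.4%) and none weakened, among them 1 within Kdr, a VEGF receptor (42.3 points), and near 14 mesenchymal genes 5 of 30 (16.7%), among them 1 within Rgs5 (50.5 points). Near 12 genes of δ-, γ- and ε-cells, 4 of 29 were strengthened (13.8%), the largest at an end of the ghrelin gene Ghrl (51.8 points), and near 13 ductal genes 6 of 46 (13.0%), with 7 weakened. Near 14 leukocyte genes 3 of 29 were strengthened (10.3%), the largest near the complement gene C1qb (46.8 points), and near 15 acinar genes 0 of 20, with 1 weakened.

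The bases under peaks near the genes of these lists are given beside those shares, since cells of other types in the sort could carry such peaks. They summed to 48.1 to 52.8 kb in the control and 56.7 to 59.1 kb in the knockout for the α-cell list, and to 24.9 to 27.5 kb and 29.2 to 30.6 kb for the endothelial list. For the mesenchymal list they were 18.1 to 20.7 and 24.9 to 26.1 kb, for the acinar list 15.5 to 18.3 and 19.02 to 22.3 kb. The groups did not overlap for these 4 lists. Nor did they for the housekeeping genes (33.0 to 35.5 and 36.7 to 39.5 kb) and striated muscle genes (35.5 to 38.2 and 45.7 to 48.9 kb) given below. Nor did they for the hepatocyte genes, the immature β-cell genes and the genes that mature β-cells keep low. The groups overlapped for the δ-, γ- and ε-cell list (25.8 to 28.7 and 27.4 to 29.6 kb), the ductal list (31.6 to 36.8 and 34.2 to 39.5 kb) and the leukocyte list (19.6 to 21.7 and 21.6 to 23.3 kb). They also overlapped for the β-cell transcription factor list (173 to 189 and 177 to 199 kb) and the insulin secretion list (353 to 374 and 353 to 388 kb). The totals of all peaks did not overlap, at 58.0 to 63.8 Mb in the control and 65.8 to 69.1 Mb in the knockout. Of the 16 α-cell genes, Gcg and Fap had no peak at their ends (1 kb) in any library. The same held for 8 of 14 endothelial genes, among them Pecam1 and Cdh5, for 9 of 14 leukocyte genes, among them Ptprc and Csf1r, for 5 of 14 mesenchymal genes, among them Col3a1 and Dcn, and for 11 of 15 acinar genes, among them Cpa1 and Cel. A shared region stood at an end of 20 of 25 β-cell transcription factor genes and 34 of 40 insulin secretion genes. By the same measure it stood at an end of 9 of 16 α-cell, 7 of 12 δ-, γ- and ε-cell, 11 of 13 ductal, 5 of 14 endothelial, 5 of 14 leukocyte, 4 of 14 mesenchymal and 2 of 15 acinar genes. The part of other cell types in the strengthened regions was not tested.

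**Figure D5:**
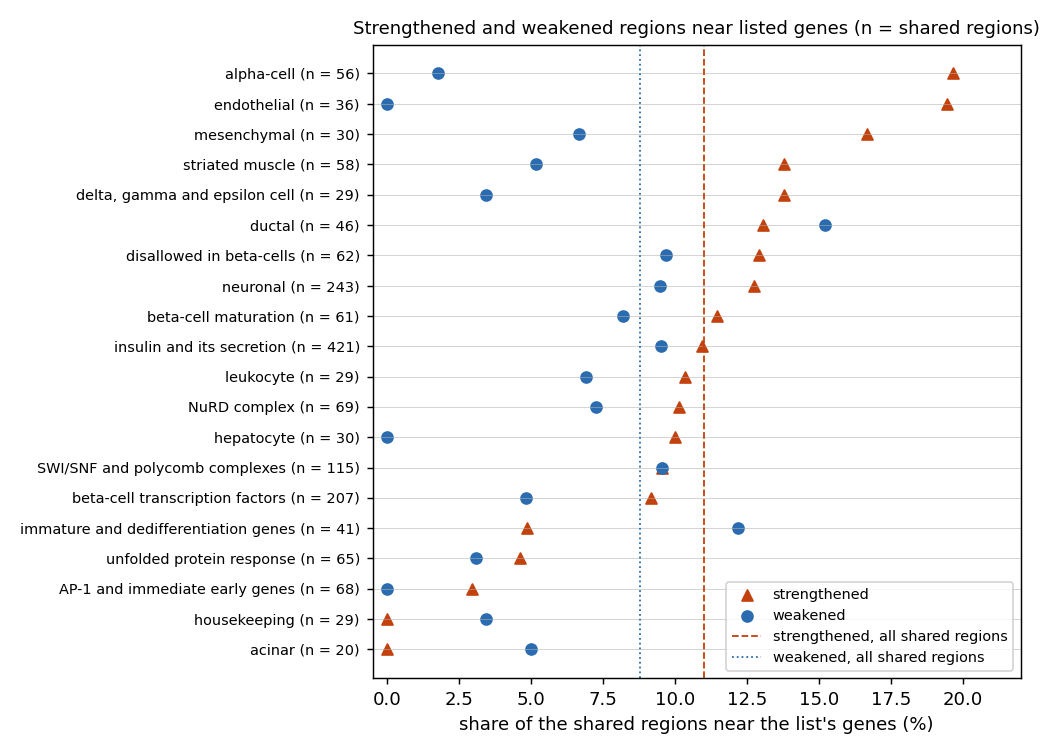
Share of shared regions near the genes of each list (x axis, percent) that were strengthened (triangles) or weakened (circles), with the number of shared regions after each list's name. The vertical lines mark the shares over all shared regions, 11.0% and 8.79%. The α-cell and endothelial lists lie farthest above the strengthened line, and the acinar and housekeeping lists have no strengthened region.

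The remaining lists hold genes that many cells use, chromatin complexes and immature β-cell genes. Near 13 housekeeping genes 0 of 29 shared regions were strengthened, near 20 AP-1 and immediate early genes 2 of 68 (2.94%), and near 15 genes of the unfolded protein response 3 of 65 (4.62%). The largest differences were at an end of Mafk, a small Maf factor (37.0 points), and within Atf6, a sensor of endoplasmic reticulum stress (31.9 points). The medians of these lists were -3.05, -3.75 and -1.74 points. Shared regions at the ends of their genes ranked high, with a median highest percentile of 92.95, 86.9 and 98.4. This takes only the strongest region at the ends of each gene. It was 50.4 for the immature or dedifferentiated β-cell genes given below. Whether rank limited the strengthened shares of these lists was not tested. Near 15 genes of the NuRD complex 7 of 69 were strengthened (10.1%), the largest within the subunit gene Gatad2a (39.9 points). One lay within Chd4 itself (chr6:125110958-125111310), with 11.4, 8.77 and 7.12 in the control libraries and 47.8, 18.4 and 45.9 in the knockout libraries. Knockout library 2 stood apart there, and the peaks do not show whether exons of Chd4 were deleted. Near 19 genes of the SWI/SNF and polycomb complexes 11 of 115 were strengthened (9.57%), 9 of them near Arid1b. Near 15 genes of immature or dedifferentiated β-cells 2 of 41 were strengthened (4.88%), the larger difference near Hes1, a Notch target (21.51 points), and 5 weakened, with a median of -7.67 points.

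Among 20 genes that mature β-cells keep low, termed disallowed, 8 of 62 shared regions were strengthened (12.9%). The largest difference was within Hk1, the low-Km hexokinase (chr10:62339878-62340758), at 22.4, 15.6 and 15.6 in the control libraries and 84.2, 82.8 and 83.2 in the knockout libraries. Near 25 neuronal genes 31 of 243 were strengthened (12.8%) and 23 weakened, the largest at an end of Camk2a, a calcium-dependent kinase of synapses (71.1 points). Near 16 genes of striated muscle 8 of 58 were strengthened (13.8%), the largest within Ppp1r12c and within 10 kb of the troponin gene Tnnt1 (57.96 points), and near 15 hepatocyte genes 3 of 30 (10.0%), among them the Hnf4a region above.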

How the data were processed

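The data were 1 ATAC-seq peak list for each of 3 control and 3 knockout libraries of mouse β-cells. The peak names, as deposited, name MACS2 and shifted cutting sites. The submitters' processing notes give mm10 as the build, and no aligner, caller setting or read filter was given in the sources used here. Each deposited peak has a score of 10 times its −log10 q. The authors' fold enrichment at the summit is a ratio, and their −log10 q and −log10 p are from the caller. The lists hold 100109 to 124125 peaks of at least 200 bp and no read counts, so no interval for depth was given. Merging, ranking and placing against 21887 protein-coding genes of RefSeq GRCm38.p6, the assembly mm10 names, were done in Python 3.11.15 with pandas 2.3.3, and checked on simulated lists. The 20 gene lists hold 332 genes, 331 matched by symbol and 1 by a synonym.

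The members, gene lists and named regions were chosen with earlier results of these data known. Named regions were the 12 with the largest difference, the 6 genes with the most regions, per gene list the largest difference (up to 5 for the β-cell transcription factor, insulin secretion and maturation lists), up to 6 promoters, and 3 on either side of the threshold. Pdx1 and Chd4, the further genes given by count and the microRNA genes were added after their values were seen. Motifs were searched on both strands of the windows. Others searched, whose shares are not printed, include TATAAA. No test between groups was run, since the rule uses the contrast. Alternatives covered how regions form, the measure, the margin, the chromosomes and each library left out.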

Additional observations from a re-analysis of the deposited data

How the results depend on the processing

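The number of strengthened regions stayed between 5394 and 8619 with regions joined from summits, peaks covering at least 50% of the region, fold enrichment or −log10 q as the measure, the mean in place of the highest peak, log2 values centred on the library median and percentiles among all chromosomes. It was 13130 with a margin of 10 points, 4278 with 30 and 3602 with the 50000 strongest peaks of each library. Leaving out each library in turn gave 8286 to 8663, and 6134 of the 8045 regions (76.2%) were chosen in every one of these 6 cases. With fold enrichment, 7011 of the 8045 were kept. The share at gene ends, in percentage points above that of all shared regions, was -11.6 and stayed negative under every alternative run. It was -12.7 with peaks covering at least 50% of the region, -20.5 with the 50000 strongest peaks, -12.4 with fold enrichment, -10.8 with a margin of 10 and -12.7 with gene ends of 5 kb (the cause was not tested), and -12.1 to -11.0 with a library left out, the latter without control library 1. The share with a gained region within 50 kb differed from that of all shared regions by -0.12 points, by 1.27 with the 50000 strongest peaks and -1.86 with fold enrichment, and by -0.42 to 0.00023 with a library left out. The median difference in left-out pairs was 29.4 points, 30.96 with fold enrichment, 20.7 and 38.1 with margins of 10 and 30, and 29.1 to 29.6 with a library left out. For the 64 regions named, none of 640 alternative values changed sign, and 27 moved by more than 1 SD. With a library left out or with −log10 q, the sign is largely fixed by the rule, which keeps the groups from overlapping. The mean of peaks and percentiles among all chromosomes kept 99.3% and 99.95% of the strengthened regions, so they could hardly change a sign either. Whether the replicate numbers in the titles pair the libraries is unknown. Same-numbered libraries deviated from their group means with correlations of 0.080, 0.13 and -0.032. Those of different number had -0.17 to 0.088, and so few libraries cannot settle it. With the replicate block, that is the knockout above the control library of the same number in all 3 pairs, 8166 regions were chosen, the gene end difference was -11.7 and the gained region difference -0.21 points. The lists hold no read counts, so depth, which limits how well weak control peaks are ranked, is unknown. At strengthened regions the median range over the 3 control libraries was 12.04 points and over the knockout libraries 8.98.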

Other observations

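A few strengthened regions covered microRNA genes. Hairpins of the RefSeq table lay under 131 shared regions, of which 8 were strengthened (6.11%, against 11.0% of all shared regions), covering 12 hairpins. These were named after their values were seen. The region over Mir27b, Mir3074-1 and Mir24-1 (chr13:63300684-63301573, at a gene end of Fancc) had percentiles of 20.6, 23.9 and 19.6 in the control libraries and 82.2, 76.6 and 84.8 in the knockout libraries. The region over Mir9-3, a microRNA gene of neurons and islets (chr7:79504717-79505513, between genes), had 11.4, 0.36 and 11.1 against 56.2, 63.97 and 55.4. Control and knockout libraries did not overlap at either, as the rule requires. Mature forms of these hairpins are shown 5′ to 3′ to identify them, with the seed (bases 2 to 8) in capitals. Their seeds differ from each other, and the peaks say nothing on the level of the microRNAs.
mmu-miR-27b-3p: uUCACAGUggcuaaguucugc
mmu-miR-24-3p: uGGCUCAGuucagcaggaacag
mmu-miR-9-5p: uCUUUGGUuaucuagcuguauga

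Strengthened and weakened regions stood next to each other more often at short range than at long range. Of neighbouring shared regions less than 2 kb apart, the region after a weakened one was strengthened in 15.03% of 725 cases, against 9.13% after any shared region at that distance. The region after a strengthened one was itself strengthened in 6.63% of 543 cases. At 10 to 50 kb this turned round, with 13.3% after a strengthened region, 9.46% after a weakened one and 11.0% after any. These shares are across regions, which are not independent, and were not tested.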
